A study of Mus musculus with 6 samples.

Results

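The 10 genes described here, Snai1, Snai2, Zeb1, Runx1, Esrp1, Vim, Cdh2, Cd44, Lgals1 and Axl, are regulators and markers of the mesenchymal transition. They were chosen by gene symbol, without a measured value in the rule, but with earlier results of these data known. All 10 were found among the 23399 genes of the deposited count table. The samples were tumour spheroids of the established mouse line CMT93, a colorectal carcinoma with a wild-type genotype label, grown over soft agar in serum-containing medium with 0.25% Matrigel. Of the 6 libraries, 3 came from spheroids given vehicle (ethanol with bovine serum albumin) and 3 from spheroids given 200 µM palmitate, a saturated fatty acid, as its sodium salt bound to the same albumin. Both groups spent 1 week under their treatment as a monolayer and a further 5 days as spheroids before RNA was isolated. Polyadenylated RNA was sequenced, and the comparison asks how transcript levels of these genes differed with palmitate. It covers a single cell line at 1 dose and 1 time, and nothing in the labels ties the 3 samples of a group to separate cultures, so the p-values describe the spread between these samples, which may be technical.

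In an epithelial to mesenchymal transition, cells loosen their junctions, exchange keratins and E-cadherin for vimentin and N-cadherin, and become motile. Transcription factors of the SNAIL and ZEB families repress epithelial genes by binding E-box sequences in their promoters, and the splicing factors ESRP1 and ESRP2 keep epithelial exon choices in place. Colorectal carcinoma cells often hold epithelial and mesenchymal markers at the same time.

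Library totals ranged from 18898896 to 21851987 counts with vehicle and from 22516639 to 22852940 with palmitate, so depth was higher in every palmitate library. Levels are given as CPM, a gene's share of its library's counts scaled to a fixed total, after TMM normalisation. Of 14987 genes tested with edgeR's quasi-likelihood test, 7915 (52.8%) passed an adjusted p of 0.05, 4110 (27.4%) higher and 3805 (25.4%) lower with palmitate. Colorectal epithelial markers summed to between 7236 and 7309.5 CPM with vehicle and between 6609.5 and 6706 CPM with palmitate. With vehicle, the general epithelial genes Cdh1 (2158 CPM), Krt8 (1702), Krt18 (1445), Krt19 (1249) and Epcam (673) made up most of this sum. The intestinal genes Cdx2, Vil1 and Cdh17 stood at 1.72, 15.7 and 19.4 CPM with vehicle and 2.46, 14.4 and 16.1 CPM with palmitate. Krt20, a marker of mature colonocytes, had at most 6 counts in a library. Markers of other cell types were scarce. The 4 fibroblast markers present in the table summed to 1.339 to 2.05 CPM with vehicle and 0.976 to 1.101 CPM with palmitate, with Dcn at 0 counts in every vehicle library and 1, 2 and 3 counts with palmitate, and Pdgfra at 0 counts and 2 counts in every library of the same groups. Endothelial markers summed to 3.23 to 3.55 CPM and 2.00 to 2.55 CPM, and immune markers to 7.42 to 9.16 CPM and 9.81 to 10.9 CPM, most of the last from the lysosomal gene Cd68. The immune marker Ptprc went the other way, from 18, 15 and 19 counts with vehicle to 6, 7 and 5 with palmitate. It was called lower (log2 fold change -1.62, adjusted p = 6.19e-05, edgeR).

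With palmitate, the adhesion receptor gene Cd44 was 1.41-fold higher, while messages for the transcription factors Runx1 and Zeb1, the filament protein Vim and the receptor kinase Axl were lower. Snai2, Lgals1 and Esrp1 did not pass the test, and Snai1 and Cdh2 were close to undetected in both groups. Of the 10 genes, 8 had enough counts to be tested and 5 of these (62.5%) were called, 1 higher and 4 lower. That share lies near the 52.8% called among all tested genes, so the number of calls does not set these genes apart. In 6 of the 8 tested genes the vehicle and palmitate libraries did not overlap, where 57.8% of all tested genes showed the same. In bulk RNA, fewer cells of a type and less RNA per cell cannot be told apart.

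**Figure D1:**
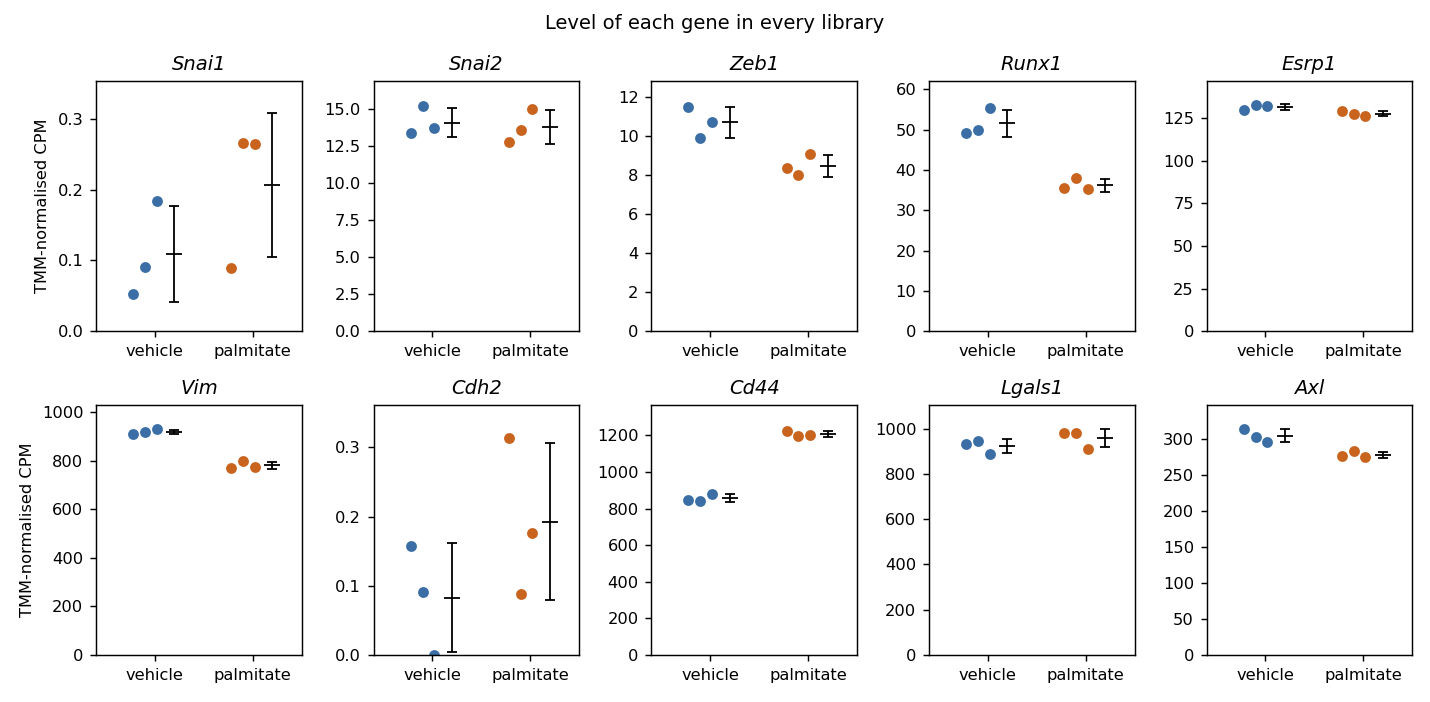
Level of each of the 10 genes in TMM-normalised CPM (vertical axes, each starting at 0) in 3 vehicle and 3 palmitate libraries, 1 point per library, with the group mean and SD in black. Cd44 lies at 843 to 881 CPM with vehicle and above 1193 CPM with palmitate, Runx1, Zeb1, Vim and Axl lie lower with palmitate, and Snai1 and Cdh2 stay under 0.32 CPM.

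Among the transcription factors, Snai1 (ENSMUSG00000042821.8) encodes SNAIL, a zinc finger repressor of E-cadherin. It had 1, 2 and 4 counts in the vehicle libraries and 2, 6 and 6 counts in the palmitate libraries. The sums of 7 counts (exact 95% Poisson interval 2.81 to 14.4) and 14 counts (7.65 to 23.5) overlap in their intervals, which cover counting error only, and no difference was detectable at this depth. When the filter on low counts was left out, its adjusted p was 0.355 (edgeR quasi-likelihood test).

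Snai2 (ENSMUSG00000022676.8), which encodes the related repressor SLUG, had far more counts than Snai1, from 253 to 340 per library. Its levels were 13.3, 15.2 and 13.7 CPM with vehicle and 12.8, 13.6 and 14.97 CPM with palmitate. The groups overlapped over nearly their whole range. The log2 fold change was -0.03 (SE 0.0702, adjusted p = 0.717, edgeR), with a 95% interval from -0.17 to 0.11, and its sign turned without vehicle replicate 2 (0.027) or palmitate replicate 1 (0.021). The scarce paralog Snai3, named here after its values were seen, was called higher (log2 fold change 0.54, adjusted p = 0.0131, edgeR). Snai3 had 41, 23 and 39 counts with vehicle and 56, 59 and 47 counts with palmitate.

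Zeb1 (ENSMUSG00000024238.16) encodes a zinc finger and homeodomain repressor that binds the same kind of E-box. It stood at 11.5, 9.92 and 10.7 CPM with vehicle and at 8.37, 7.99 and 9.07 CPM with palmitate, so every palmitate library lay below every vehicle library. Its level fell from 10.7 ± 0.782 to 8.48 ± 0.550 CPM (SD, n = 3 libraries each), a log2 fold change of -0.33 (SE 0.0836, adjusted p = 4.89e-04, edgeR). At 180 to 232 counts per library it is measured less precisely than the abundant genes, and the 95% interval runs from -0.50 to -0.17. Its paralog Zeb2, named here after its values were seen, went from 14.0 ± 1.15 to 16.2 ± 1.29 CPM (log2 fold change 0.20, adjusted p = 0.00911, edgeR). The groups of Zeb2 overlapped, and its call was lost with DESeq2 (adjusted p = 0.102) and without vehicle replicate 1 (0.0597), vehicle replicate 2 (0.0682) or palmitate replicate 3 (0.128, edgeR).

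Runx1 (ENSMUSG00000022952.18) encodes a DNA-binding factor of blood and epithelial progenitors that works with the partner protein CBFB. Its levels were 49.2, 50.0 and 55.3 CPM with vehicle and 35.4, 37.9 and 35.1 CPM with palmitate. The groups were well apart, and vehicle replicate 3 was the highest library. Runx1 fell from 51.5 ± 3.35 to 36.2 ± 1.55 CPM (SD, n = 3 libraries each), a log2 fold change of -0.51 (SE 0.0425, adjusted p = 2.79e-18, edgeR). This was the greatest fall among the 8 tested genes, and 15.5% of all tested genes had a larger change in either direction.

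Neither of the other RUNX genes, nor the partner, was called lower. Runx2, known for its part in bone formation, rose from 85.0 ± 3.37 to 93.4 ± 1.31 CPM (log2 fold change 0.14, adjusted p = 5.17e-05, edgeR). Runx3, named after its values were seen, had an uncalled log2 fold change of 0.08 (edgeR, adjusted p = 0.0573) and was called without palmitate replicate 3 (adjusted p = 0.0126) and with no count filter (0.0421). Cbfb differed by 0.04 on the log2 scale, short of the threshold (edgeR, adjusted p = 0.0636), and was called without vehicle replicate 1 (0.0368) and with no count filter (0.0323). Within each library, the log2 ratio of Runx1 to Runx2 counts was -0.85, -0.73 and -0.59 with vehicle and -1.42, -1.28 and -1.41 with palmitate. It differed by -0.65 between the group means, and the 2 groups did not overlap (exact permutation test, two-sided, p = 0.10, the smallest that 3 against 3 libraries can give).

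Esrp1 (ENSMUSG00000040728.16) encodes the epithelial splicing regulator. It stood at 129.6, 133 and 132 CPM with vehicle and at 129.1, 128 and 126 CPM with palmitate, which left a narrow gap between the groups. The mean went from 131 ± 1.65 to 128 ± 1.49 CPM (SD, n = 3 libraries each), a log2 fold change of -0.04 (SE 0.0246, adjusted p = 0.132, edgeR) that did not pass the threshold. Its 95% interval, -0.09 to 0.0054, bounds the fold between 0.938 and 1.00. The related Esrp2 was more abundant, at 398 ± 16.4 and 395 ± 7.40 CPM, and was not called either (log2 fold change -0.0099, adjusted p = 0.714, edgeR).

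Among the effector genes, Vim (ENSMUSG00000026728.10) encodes vimentin, the intermediate filament protein of mesenchymal cells. Its levels were 911, 919.6 and 930.1 CPM with vehicle and 773, 799 and 777 CPM with palmitate. All 3 palmitate libraries were lower by a margin several times their spread. Vim fell from 920.3 ± 9.45 to 783 ± 14.3 CPM (SD, n = 3 libraries each), a log2 fold change of -0.23 (SE 0.0157, adjusted p = 1.57e-23, edgeR), or 0.851 times the vehicle level. Fibroblasts also express Vim; the fibroblast marker sums are given above, and their part in the fall of Vim was not tested.

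Cdh2 (ENSMUSG00000024304.15) encodes N-cadherin, the cadherin that replaces E-cadherin in the classical form of the transition. It had 3, 2 and 0 counts with vehicle and 7, 2 and 4 counts with palmitate, and the count of 0 allows up to 0.138 CPM in that library. The summed counts were 5 (exact 95% Poisson interval 1.62 to 11.7) and 13 (6.92 to 22.2), and without the filter on low counts the adjusted p was 0.221 (edgeR). N-cadherin message was thus near the detection limit in both groups, whereas Cdh1, which encodes E-cadherin, stood at 2158 ± 10.8 and 2091 ± 26.0 CPM.

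Cd44 (ENSMUSG00000005087.18) encodes a surface receptor for hyaluronan that marks progenitor-like and migratory carcinoma cells. Its levels were 847, 843 and 881 CPM with vehicle and 1224, 1194 and 1199.9 CPM with palmitate. The gap between the groups was more than 10 times either group's SD. Cd44 rose from 857 ± 20.7 to 1206 ± 15.7 CPM (SD, n = 3 libraries each), a log2 fold change of 0.49 (SE 0.0157, adjusted p = 1.59e-44, edgeR). It was the only one of the 8 tested genes called higher, and 16.3% of all tested genes had a larger change. Gene counts add up all splice forms, so the standard and variant forms of Cd44 could not be separated.

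Lgals1 (ENSMUSG00000068220.7) encodes galectin-1, a secreted lectin that binds galactose-containing sugars. It stood at 934, 947 and 889.9 CPM with vehicle and at 983, 984 and 913 CPM with palmitate. The groups overlapped, since palmitate replicate 3 lay below vehicle replicates 1 and 2. The log2 fold change was 0.06 (SE 0.0409, adjusted p = 0.326, edgeR), with a 95% interval from -0.05 to 0.16. It was called higher with limma-voom (adjusted p = 0.0128), with no count filter (3.40e-04, edgeR) and without palmitate replicate 3 (log2 fold change 0.09, adjusted p = 5.45e-05, edgeR).

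Axl (ENSMUSG00000002602.17) encodes a receptor kinase of the TAM group, whose ligands are GAS6 and protein S. Its levels were 314, 303 and 296 CPM with vehicle and 277, 283 and 275 CPM with palmitate. The groups did not overlap, but the step between them was small. Axl fell from 305 ± 9.15 to 279 ± 4.01 CPM (SD, n = 3 libraries each), a log2 fold change of -0.13 (SE 0.0196, adjusted p = 2.78e-08, edgeR), and 56.0% of all tested genes had a larger change.

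**Figure D2:**
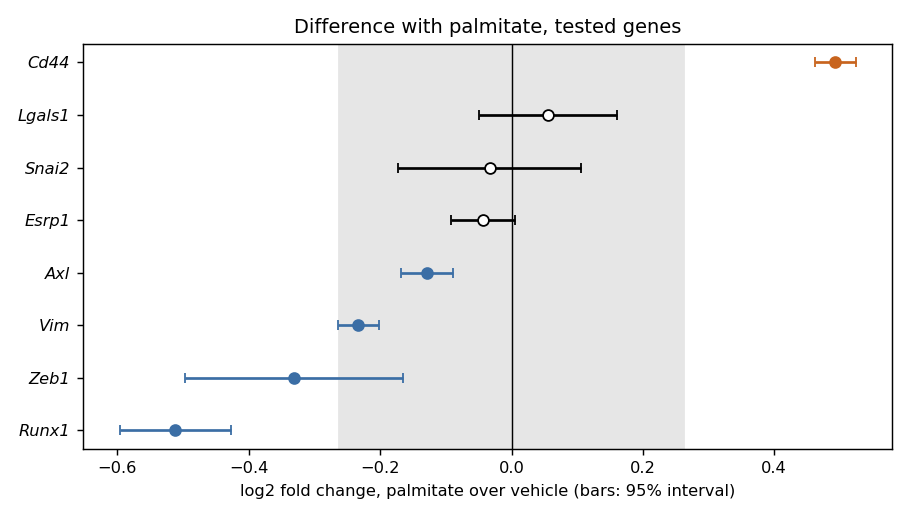
Log2 fold change of palmitate over vehicle (horizontal axis) for the 8 tested genes, with 95% intervals from edgeR. Filled points passed the adjusted threshold, open points did not, and the grey band spans a 1.2-fold change in either direction. Cd44 (0.49) and Runx1 (-0.51) have intervals wholly outside the band, and Axl lies inside it.

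Most of these changes were modest. When the test asked for more than a 1.2-fold change (glmTreat), which 15.2% of all tested genes passed, only Cd44 and Runx1 of the 8 were called, and Vim, Zeb1 and Axl were not. In the authors' deposited table, which lists all 10 genes, 5 had a q-value under 0.05, and they were Cd44, Runx1, Zeb1, Vim and Axl. So had 24.2% of its 23399 genes, which include 8412 genes not tested here for lack of counts. The authors' deposited table gives a log2 fold change of 0.50 for Cd44, -0.51 for Runx1, -0.33 for Zeb1, -0.23 for Vim and -0.13 for Axl. With every library thinned to the shallowest total, all 8 tested genes kept their direction and their side of the threshold.

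The genes differed in how closely replicates repeated one another. Vim varied by 1.03% with vehicle and 1.82% with palmitate (coefficient of variation over 3 libraries), where counting alone gives 0.721% and 0.753%. Esrp1 varied by 1.26% and 1.16%, below the 1.91% and 1.86% that counting gives. Lgals1 was the least steady of the abundant genes, at 3.24% and 4.25% against 0.720% and 0.680% from counting. Runx1 varied by 6.51% with vehicle against 3.05% from counting, while Zeb1 (7.30% against 6.70%) stayed near its counting error.

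Levels of different genes were compared as CPM per kb of exon, with exon lengths from an earlier annotation. Each length is the union of all annotated exons of a gene, which can exceed that of the transcript made. The order of genes below rests on this definition. Lgals1 was highest, at 1023 ± 33.1 CPM per kb with vehicle, a level like that of the keratin gene Krt18 (1006 ± 14.9). Vim stood at 194 ± 1.99, Cd44 at 126 ± 3.05, Axl at 60.5 ± 1.82 and Esrp1 at 20.8 ± 0.262 CPM per kb with vehicle. The transcription factors were far lower, with Snai2 at 6.96 ± 0.493, Runx1 at 4.28 ± 0.279 and Zeb1 at 1.04 ± 0.0761 CPM per kb. Each of these neighbours was separated by more than the spread of its 3 libraries. Snai1 (0.0675) and Cdh2 (0.0103 CPM per kb) came last, with too few counts to be ordered. With palmitate the order was kept except at 1 place. Cd44 rose to 178 ± 2.32 and Vim fell to 165 ± 3.00 CPM per kb. The lengths used were 4.743 kb for Vim and 6.776 kb for Cd44. With them, Vim was above Cd44 in all 3 vehicle libraries and below it in all 3 palmitate libraries. A shorter length for Vim would raise its level per kb, and the order was not tested with other lengths. E-cadherin (Cdh1) stood at 472 ± 2.37 and 457 ± 5.68 CPM per kb, above Vim in both groups with these lengths.

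**Figure D3:**
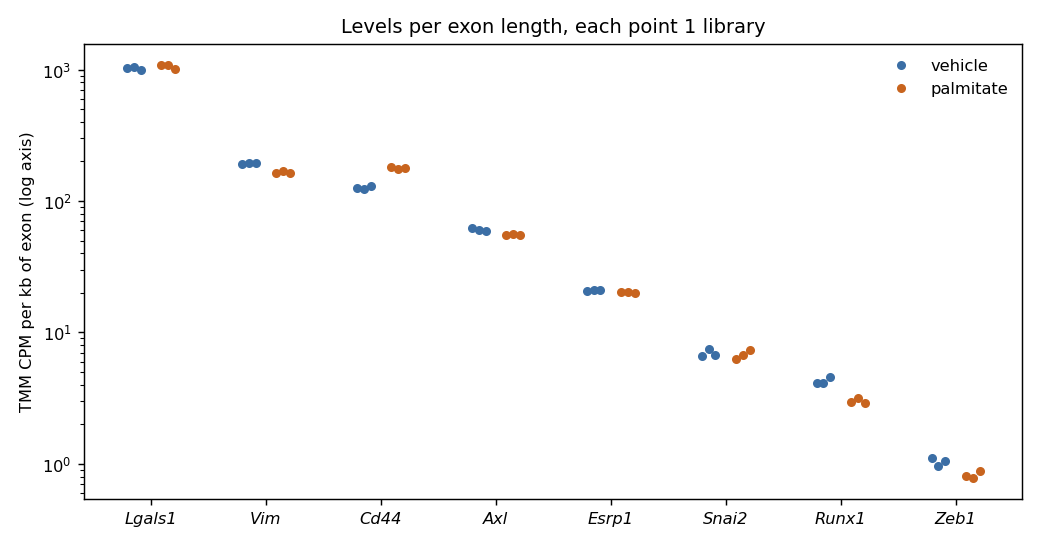
Level per exon length (TMM CPM per kb, log axis) of the 8 tested genes in each library, vehicle in blue and palmitate in orange, 1 point per library. The genes run from Lgals1 near 1023 to Zeb1 near 1.04 CPM per kb with vehicle. With lengths taken as the union of all annotated exons, Vim and Cd44 change places with palmitate.

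Ratios of 2 genes within a library do not depend on how libraries are scaled. Of 6 ratios planned, 4 had at least 10 counts of both genes in each library and were tested, and in each the groups did not overlap, with an adjusted p of 0.10, the smallest possible here (exact permutation test, two-sided, Benjamini-Hochberg over 4). The log2 ratio of Vim to Cdh1 was -1.24, -1.23 and -1.22 with vehicle and -1.44, -1.40 and -1.41 with palmitate, a difference of -0.19. Against the keratin gene Krt18 the direction was the opposite. The log2 ratio of Vim to Krt18 was -0.69, -0.64 and -0.62 with vehicle and -0.49, -0.42 and -0.47 with palmitate, a difference of 0.19, and the log2 fold changes of the single genes were -0.42 for Krt18 and -0.23 for Vim. The log2 ratio of Cd44 to Esrp1 was 2.71, 2.67 and 2.74 with vehicle and 3.24, 3.23 and 3.25 with palmitate, a difference of 0.54. The ratios of Cdh2 to Cdh1 and of Axl to Gas6 had too few counts of Cdh2 and Gas6.

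**Figure D4:**
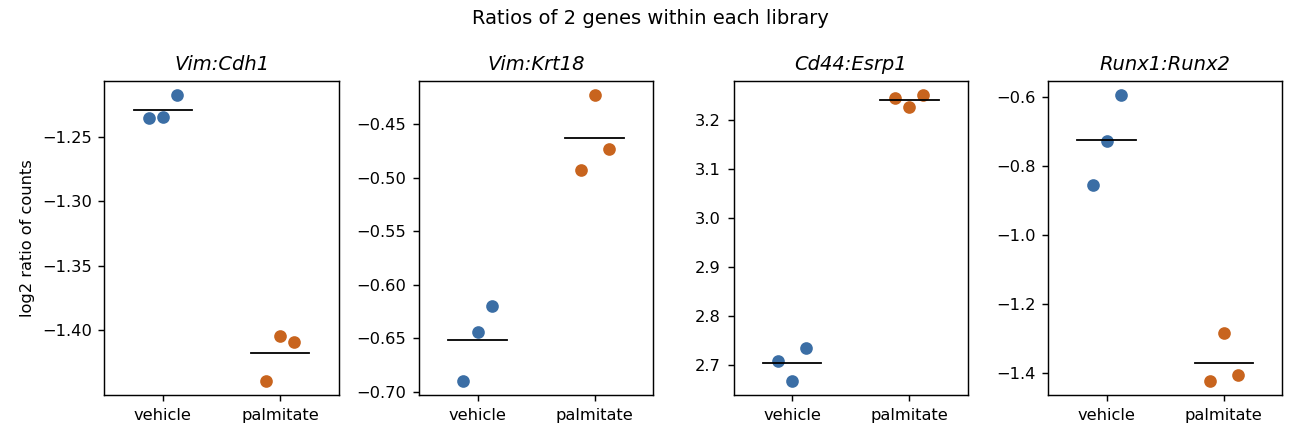
Log2 ratio of the raw counts of 2 genes within each library (vertical axes, which do not start at 0), 1 point per library with the group mean as a line. Vim falls against Cdh1 and rises against Krt18 with palmitate, and the Runx1 to Runx2 ratio falls by 0.65.

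The promoters of the called genes are shown so that the sequence before each start can be read beside the changes. RefSeq promoter windows matched by symbol are used for 5 of the 10 genes, Vim, Snai1, Runx1, Cd44 and Axl, and none is used here for Snai2, Lgals1, Esrp1, Zeb1 and Cdh2. Each line gives the 250 bases before the annotated start, 5′ to 3′ on the gene's strand, in build GRCm38.p6. Both strands were searched for CAGGTG (the E-box bound by SNAIL and ZEB factors), TGTGGT (a RUNX motif), TGANTCA (an AP-1 motif) and GGAATG (a TEAD motif), and capitals mark the matches.
Cd44, chr2:102901666-102901915, minus strand: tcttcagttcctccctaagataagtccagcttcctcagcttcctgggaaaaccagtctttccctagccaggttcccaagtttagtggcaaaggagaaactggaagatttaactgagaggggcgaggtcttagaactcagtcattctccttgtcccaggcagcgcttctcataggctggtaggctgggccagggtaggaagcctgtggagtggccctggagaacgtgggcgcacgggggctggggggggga
Vim, chr2:13574061-13574310, plus strand: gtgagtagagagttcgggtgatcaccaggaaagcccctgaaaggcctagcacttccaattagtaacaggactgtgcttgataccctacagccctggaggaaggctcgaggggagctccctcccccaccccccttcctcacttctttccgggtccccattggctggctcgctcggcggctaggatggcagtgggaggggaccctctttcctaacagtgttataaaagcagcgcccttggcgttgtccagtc
Axl, chr7:25788734-25788983, minus strand: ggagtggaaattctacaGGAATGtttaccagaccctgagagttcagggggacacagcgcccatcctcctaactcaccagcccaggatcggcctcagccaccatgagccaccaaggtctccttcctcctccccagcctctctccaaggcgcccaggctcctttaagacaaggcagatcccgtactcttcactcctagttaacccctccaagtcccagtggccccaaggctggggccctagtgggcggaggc
Runx1, upstream start, chr16:92826075-92826324, minus strand: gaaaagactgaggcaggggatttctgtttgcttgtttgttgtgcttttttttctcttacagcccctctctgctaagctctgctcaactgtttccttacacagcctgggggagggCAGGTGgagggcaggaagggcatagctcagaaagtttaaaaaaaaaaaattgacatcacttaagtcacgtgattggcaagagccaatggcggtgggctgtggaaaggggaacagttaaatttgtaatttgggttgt
Runx1, downstream start, chr16:92697330-92697579, minus strand: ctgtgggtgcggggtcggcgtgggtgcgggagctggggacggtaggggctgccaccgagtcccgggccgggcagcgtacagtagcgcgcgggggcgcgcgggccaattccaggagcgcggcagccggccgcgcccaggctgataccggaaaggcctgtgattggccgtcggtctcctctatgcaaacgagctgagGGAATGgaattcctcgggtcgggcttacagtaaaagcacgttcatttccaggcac

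No match overlapped another. The window of Runx1's upstream start held an E-box match 136 to 131 bases before the start, and that of its downstream start a TEAD match 55 to 50 bases before it. Axl held a TEAD match 233 to 228 bases before its start. Snai1, whose window is not printed, held an E-box match 126 to 121 bases before its start. The Cd44 and Vim windows held none of the 4 motifs, and no window held the RUNX or the AP-1 motif. Over all 32851 RefSeq promoter windows of the same length, 17.2% held the E-box, 14.0% the RUNX motif, 6.75% the AP-1 motif and 12.6% the TEAD motif. These matches are letters in a window and were not tested for binding.

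The wider family of transition factors moved in both directions. For this list and those that follow, the share called stands beside 52.8% of all tested genes, and no list's share was tested against it. Of 14 tested EMT transcription factors, Snai2 and Zeb1 among them, 5 were higher, 7 lower and 2 not called (85.7% called), with a median log2 fold change of -0.07 beside 0.00068 for all tested genes. Klf8, a repressor of E-cadherin, rose from 2.30 ± 0.156 to 6.004 ± 0.467 CPM (log2 fold change 1.38, adjusted p = 2.74e-15, edgeR), and the homeobox gene Prrx2 rose by 0.67 on the log2 scale. Tead1, a partner of the coactivator YAP, fell from 209 ± 2.15 to 174 ± 1.93 CPM. Among 21 tested corepressors and SNAIL degradation genes, 7 were higher, 3 lower and 11 not called, or 47.6% called. Those called with the smallest p were Rcor1 (log2 fold change 0.18), a scaffold of the CoREST repressor complex, the ubiquitin ligase subunit gene Fbxl5 (0.15) and Smad3 (-0.15), a signal carrier of TGF-beta.

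Factors that hold the epithelial state were also mixed. Of 17 tested guardians and splicing factors, Esrp1 among them, 9 were higher, 5 lower and 3 not called (82.4% called). Grhl3, a grainyhead factor of epithelial barriers, fell from 16.9 ± 2.19 to 4.54 ± 0.327 CPM (log2 fold change -1.89, adjusted p = 3.85e-30, edgeR). The ZEB1-repressing zinc finger genes Ovol1 and Ovol2 had log2 fold changes of 1.04 and 1.52, starting from vehicle levels of 2.98 ± 0.393 and 0.369 ± 0.0801 CPM, and both rose. Ovol2 was scarce and its palmitate libraries were uneven, with 8, 9 and 6 counts with vehicle and 12, 25 and 35 with palmitate. The epithelial ETS factor genes parted, with Elf3 lower (-0.38) and Ehf higher (0.20). Grhl2 was scarce, at 0.693 ± 0.190 and 0.341 ± 0.0703 CPM, and its call as lower was lost with DESeq2 (adjusted p = 0.127) and without vehicle replicate 2 (0.0625) or palmitate replicate 3 (0.0592, edgeR). Of 17 tested genes with known ESRP-controlled exons, Cd44 among them, 7 were higher, 4 lower and 6 not called (64.7% called). Besides Cd44, the actin regulator gene Enah (log2 fold change 0.16) and the lipid-binding protein gene Osbpl3 (0.15) rose.

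Epithelial and mesenchymal markers outside the 10 genes each divided between higher and lower. Of 26 tested epithelial adhesion and filament markers, 10 were higher, 10 lower and 6 not called (76.9% called), with a median log2 fold change of -0.05. Krt18 and its partner keratin Krt8 fell by 0.42 and 0.24 on the log2 scale, and the mucin gene Muc1 fell from 34.1 ± 3.10 to 16.2 ± 0.720 CPM. The keratins did not all fall. Krt7 fell by 0.12, but Krt19 rose from 1249 to 1364 CPM (log2 fold change 0.13, adjusted p = 3.08e-12, edgeR). The claudin gene Cldn3 rose by 1.66 on the log2 scale from a low level, 3.92 ± 0.367 to 12.4 ± 0.661 CPM. Cdh1 fell slightly (log2 fold change -0.05, adjusted p = 0.00470 with edgeR), which was not called without palmitate replicate 3 (0.0822). Epcam, an epithelial adhesion molecule, missed the threshold at a log2 fold change of -0.04 (edgeR, adjusted p = 0.0655) and passed without vehicle replicate 3 (0.0147) or palmitate replicate 2 (0.0282), with limma-voom (0.0472) and with median-of-ratios size factors (0.0423).

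Of 21 tested mesenchymal matrix and surface markers, 8 were higher, 9 lower and 4 not called (81.0% called), with a median log2 fold change of -0.06. Fn1, which encodes fibronectin, fell from 3349 ± 8.85 to 2704 ± 41.9 CPM (log2 fold change -0.31, adjusted p = 8.67e-35, edgeR). The matrix protein gene Sparc fell by 1.46 on the log2 scale, from 115 ± 2.93 to 41.9 ± 1.92 CPM. The smooth muscle actin gene Acta2 and the collagen genes Col1a1 and Col5a1 fell by 1.46, 1.03 and 1.56 but were scarce. Acta2 went from 3.48 ± 0.286 to 1.26 ± 0.611 CPM, Col1a1 from 1.45 ± 0.207 to 0.710 ± 0.0418 CPM and Col5a1 from 2.74 ± 0.457 to 0.917 ± 0.355 CPM. Col1a1 is itself 1 of the 4 fibroblast markers and makes up most of their sum, so the lower sum with palmitate is largely its own fall, while Dcn and Pdgfra had more counts with palmitate. The part of other cells in this result was not tested. Tgfbi, a TGF-beta-induced matrix protein gene, rose from 10.8 ± 1.04 to 33.8 ± 1.18 CPM, and the signalling ligand gene Wnt5a rose from 1.13 ± 0.331 to 3.29 ± 0.390 CPM. Unlike Col1a1 and Col5a1, the more abundant collagen gene Col6a1 rose from 11.9 to 19.2 CPM (log2 fold change 0.69, adjusted p = 1.13e-15, edgeR).

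Relatives and partners of single genes also went both ways. Among 8 tested intermediate filament genes, 5 were called (62.5%), Vim was 1 of 3 lower, and Nes, which encodes nestin, and Plec, which encodes the linker plectin, rose (log2 fold changes 0.21 and 0.14). Among 12 tested CD44 and hyaluronan genes, Cd44 included, 6 were higher, 4 lower and 2 not called (83.3% called). Has3, a hyaluronan synthase gene, fell from 22.5 ± 0.333 to 11.2 ± 0.353 CPM (log2 fold change -1.002, adjusted p = 3.75e-25, edgeR), and Met, the receptor gene of hepatocyte growth factor, fell by 0.28 on the log2 scale. Among 11 tested galectins and partners, 2 were higher, 5 lower and 4 not called (63.6% called), Lgals1 among the last. Lgals9 and Lgals12 fell by 0.50 and 1.17 on the log2 scale. The 2 called higher were the galectin gene Lgals3, which rose by 0.21, and the lysosomal glycoprotein gene Lamp1, which rose by 0.17. Of 11 tested RUNX family and partner genes, 2 were higher, 5 lower and 4 not called (63.6% called), and the corepressor gene Tle3 (-0.17) and the factor gene Ets1 (-0.14) were among those lower beside Runx1.

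Of the TAM receptors, Tyro3 rose while Axl and Mertk fell. Of 8 tested TAM receptor and ligand genes, Axl included, 3 were higher, 4 lower and 1 not called (87.5% called). Tyro3 rose from 29.6 ± 1.59 to 40.9 ± 1.83 CPM (log2 fold change 0.47, adjusted p = 2.70e-15, edgeR) where Axl fell, and the scarce Mertk fell from 1.41 ± 0.308 to 0.622 ± 0.0474 CPM. Pros1, which encodes the ligand protein S, rose from 16.5 ± 0.517 to 30.2 ± 1.00 CPM (log2 fold change 0.87, adjusted p = 1.81e-25, edgeR), and the other ligand gene Gas6 had at most 3 counts in any library. The cytokine signalling inhibitor gene Socs1 fell by 0.88 on the log2 scale. Of 10 tested classical cadherin, catenin and nectin genes, 2 were higher, 4 lower and 4 not called (60% called). Cdh3, which encodes P-cadherin, rose from 2.63 ± 0.167 to 6.42 ± 0.334 CPM, the junction genes Ctnna1 and Nectin2 fell by 0.21 and 0.35 on the log2 scale, and Jup, which encodes plakoglobin, rose by 0.25.

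The most abundant uncalled gene of each list lay close to no change, which follows from choosing uncalled genes with many counts. The log2 fold change was -0.02 for Ajuba, a SNAIL cofactor gene, -0.05 for the sheddase gene Adam17, -0.0040 for the membrane linker gene Ezr and -0.0026 for Ctnnb1, which encodes beta-catenin. It was 0.04 for the polarity gene Scrib, which was called without palmitate replicate 1 (adjusted p = 0.0139, edgeR). The fibronectin receptor subunit gene Itga5 (-0.06) and the lamin gene Lmna (-0.03) were called lower with thinned libraries (adjusted p = 0.0376 and 0.0499, edgeR), and Lmna also without vehicle replicate 3 (0.0284) or palmitate replicate 2 (0.0446).

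**Figure D5:**
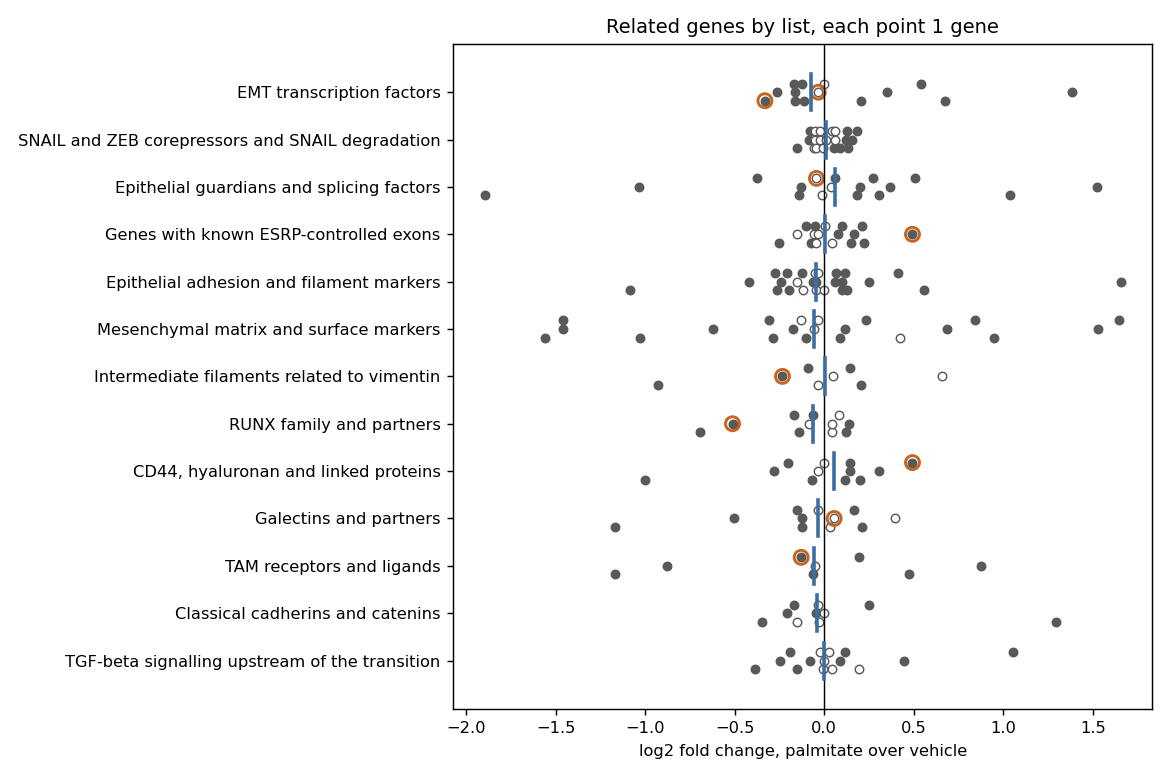
Log2 fold change of palmitate over vehicle (horizontal axis) for each tested gene of 13 related lists, 1 point per gene, filled where the gene passed the adjusted threshold. Orange rings mark the genes of this report and blue bars the list medians, which lie between -0.07 and 0.06 in all 13 lists.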

How the data were processed

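Counts per gene from 6 polyadenylated RNA libraries were used. The submitters' processing notes name build mm39 and the tools STAR 2.6.1, DESeq2 1.34.0, FastQC 0.11.8 and HTSeq. The authors deposited raw counts for 23399 genes. The authors' deposited table holds log2 fold changes, p-values and q-values from DESeq2, and a score made from each p-value's −log10 with the sign of the change, per the labels. The kit keeps strand, per the labels' protocols; how counting treated it was not stated in what was used here, so antisense genes overlapping exons of Esrp1, Runx1 and Zeb1 in the earlier annotation may share reads with them.

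The main test on counts was edgeR 4.0.16 under R 4.3.3 (TMM, filterByExpr with a minimum count of 10, glmQLFit with robust estimation, glmQLFTest, two-sided, Benjamini-Hochberg over 14987 genes). Each SE is the absolute log2 fold change divided by the root of F. Other fits used DESeq2 1.42.0, limma 3.58.1 (voom), glmTreat, median-of-ratios size factors, no filter, a replicate block, thinned counts, and each library left out. Ratios used a pseudocount of 0.5. Exon lengths, the union of all annotated exons of a gene, came from an earlier GENCODE annotation of GRCm38 and promoters from RefSeq GRCm38.p6. Named genes were, by rule, all members, up to 3 called members with the smallest p and the most abundant uncalled member of each list, every called list member changed at least 2-fold, and Cdh1, Krt8, Krt18, Epcam and Fn1. The changes of Krt7, Krt19, Col6a1, Lgals3, Snai3 and Ptprc were named after their values were seen. They are not among the 60 other named genes counted under the alternatives. Members and lists were chosen with earlier results of these data known. No 2 libraries agreed within counting noise (chi-square per degree of freedom 1.20 to 1.38). Listed genes without a row in the table were not analysed here.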

Additional observations from a re-analysis of the deposited data

How the results depend on the processing

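Of 8 tested members under 13 alternatives, the calls of Cd44 and Runx1 held in every alternative, and those of Vim, Zeb1 and Axl held in all but glmTreat against a 1.2-fold change (adjusted p = 1, 0.337 and 1). With glmTreat, 2275 genes and 2 members were called, and 20 of 60 other named genes lost their call. Leaving out each library gave 7260 to 7406 called genes and 5 to 6 called members. DESeq2 called 5692 genes and 5 members. The replicate block gave 7933 genes and 6 members, with Lgals1 added (adjusted p = 0.00247, edgeR), and a permutation p of 0.25 for each ratio, the smallest that 3 sign flips allow; same-numbered libraries did not deviate together (r from -0.0045 to 0.0085), so the numbers were not taken as pairs. The 4 tested ratios kept their sign in every alternative. Reversed signs arose for uncalled genes with changes near 0. Snai2 ran from -0.096 to 0.027 without single libraries, above 0 without vehicle replicate 2 or palmitate replicate 1 (0.021). Ctnnb1 (-0.0026) was 0.0070 with no count filter, 0.00055 with DESeq2 and -0.0079 to 0.0066 without single libraries. Ezr (-0.0040) was 0.0056 with no count filter and -0.011 to 0.0042 without single libraries, where Esrp2 ran from -0.044 to 0.017. Ltbp3 (0.00050) was -0.0029 with median-of-ratios size factors, -0.0042 with thinned libraries and -0.0046 to 0.013 without single libraries. The cause of these reversals was not tested. For Zeb1 and Snai2, at 180 to 340 counts per library, counting error alone was 5.68 to 7.24% of the level, and for Snai1 and Cdh2 no difference was detectable at this depth.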

Other observations

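Genes of TGF-beta signalling, a pathway that can start the transition, were measured in the same libraries. Of 15 tested, 4 were higher, 5 lower and 6 not called (60% called, beside 52.8% of all tested genes), with a median log2 fold change of 0.00050. Inhba, which encodes a subunit of activin, stood at 55.8 ± 2.39 CPM in the vehicle and 115.9 ± 0.511 CPM in the palmitate libraries (mean ± SD of 3 each) and rose by 1.05 on the log2 scale (edgeR, adjusted p = 1.32e-47). The ligand gene Tgfb3 rose from 59.4 ± 2.03 to 80.7 ± 3.68 CPM, and the receptor gene Tgfbr1 fell from 210.3 ± 3.70 to 160.7 ± 2.40 CPM. Ltbp3, which encodes a binding protein of the latent ligand, stood at 478.5 ± 2.41 and 478.7 ± 5.56 CPM and was not called (adjusted p = 0.983, edgeR).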
